A study of Mus musculus with 72 samples.

Results

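The genes described here encode the 3 large families of conjugating enzymes of the liver: the UDP-glucuronosyltransferases (Ugt genes), the soluble glutathione S-transferases (Gst genes) and the sulfotransferases (Sult genes). Members were taken by symbol from the whole-gene expression table, as every Ugt1a, Ugt2a, Ugt2b and Ugt3a gene, every Gst gene of classes a, k, m, o, p, t and z, and every gene of Sult classes 1 to 5. This gave 55 of 20561 genes, of which 20 were Ugt, 21 Gst and 14 Sult genes. Liver and gastrocnemius muscle came from male C57BL/6J mice aged 8 weeks in 2 feeding states, with chow at will (fed) or after a fast of 24 h (fasted). All mice were held in equal periods of light and dark. Tissues were taken at 6 times 4 h apart, at ZT0, ZT4, ZT8, ZT12, ZT16 and ZT20. Zeitgeber time (ZT) counts hours from the onset of light. There were 3 libraries per tissue, feeding state and time, which is 72 in all and 18 per tissue and feeding state. Nothing says that the libraries were anything but separate samples of a group, and the p-values cover only the spread among them, which may be technical in part.

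Conjugating enzymes attach a polar group to hormones, bile pigments, bile acids, drugs and dietary compounds, which makes them easier to export in bile or urine. UDP-glucuronosyltransferases sit in the endoplasmic reticulum and use UDP-glucuronic acid, glutathione S-transferases add glutathione to electrophiles, and cytosolic sulfotransferases move sulfate from the donor PAPS. In the liver these genes are known targets of the nuclear receptors CAR and PXR, of the aryl hydrocarbon receptor, of NRF2 and of growth hormone signalling.

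Genes of 1 locus changed in different directions, so the bases before the start sites of a few members are shown first. Sequences are from RefSeq on GRCm38.p6, the build known as mm10, and stop short of the transcribed gene. They read 5′ to 3′ on the strand of the gene, and capitals mark every match to 1 of 7 motifs searched on both strands. These motifs were the antioxidant response element core TGACNNNGC, the nuclear receptor half-site AGGTCA, the dioxin response element core GCGTG, the E-box CACGTG, the D-box TTATGTAA, the glucocorticoid receptor core ACANNNTGT and the HNF1 half-site GTTAAT. A match is a match of letters and not a shown binding site. The antioxidant core can hold or overlap the dioxin core and the nuclear receptor half-site, and bases that matches share are in capitals once. The Ugt1a genes lie on chromosome 1 between 88055388 and 88220002, and each has a first exon and a promoter of its own and shares the last exons with its neighbours. By the change over all times, Ugt1a9 and Ugt1a1 rose in fasted liver and Ugt1a5, which lies between them, fell.
Ugt1a9 (chr1:88070529-88070778, plus strand): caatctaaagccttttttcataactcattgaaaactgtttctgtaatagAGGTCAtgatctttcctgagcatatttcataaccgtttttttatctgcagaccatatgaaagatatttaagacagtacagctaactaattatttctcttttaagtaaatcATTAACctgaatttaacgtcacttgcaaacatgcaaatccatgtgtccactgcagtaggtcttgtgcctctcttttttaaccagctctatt
Ugt1a5 (chr1:88165762-88166011, plus strand): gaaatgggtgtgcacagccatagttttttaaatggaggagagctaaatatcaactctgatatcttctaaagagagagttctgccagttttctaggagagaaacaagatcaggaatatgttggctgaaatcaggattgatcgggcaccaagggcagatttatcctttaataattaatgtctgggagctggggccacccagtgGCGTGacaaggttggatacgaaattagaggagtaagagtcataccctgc
Ugt1a1 (chr1:88211709-88211958, plus strand): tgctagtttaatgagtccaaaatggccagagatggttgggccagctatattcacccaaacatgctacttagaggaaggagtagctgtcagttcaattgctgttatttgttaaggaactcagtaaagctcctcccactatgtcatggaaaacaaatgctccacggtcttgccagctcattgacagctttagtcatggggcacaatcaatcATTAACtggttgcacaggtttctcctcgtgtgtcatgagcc

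The windows of Ugt1a9 and Ugt1a1 held the HNF1 half-site on the other strand, at positions -91 and -41 from the start site, and Ugt1a9 also held AGGTCA at -201. The window of Ugt1a5 did not hold these letters and held the dioxin response element core at -49. Ugt1a6a and Ugt1a10, of the same locus, fell with log2 changes of -0.86 and -0.33, and their promoter entries also held the HNF1 half-site. The half-site thus stood before genes that rose and genes that fell. Over all 32851 promoters of the same 250 bases, 6.43% held the HNF1 half-site and 28.2% the dioxin response element core. Among the 58 promoter entries found for 47 of the 55 members, 15.5% held each of these motifs.

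Of the 8 Ugt2 genes tested, all on chromosome 5 between 86889767 and 87490871, every one fell in fasted liver. The 60 bases next to the gene are shown for 4 of them, because each held the nuclear receptor half-site AGGTCA there.
Ugt2b36 (chr5:87092556-87092615, minus strand): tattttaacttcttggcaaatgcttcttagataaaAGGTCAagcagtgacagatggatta
Ugt2b5 (chr5:87140341-87140400, minus strand): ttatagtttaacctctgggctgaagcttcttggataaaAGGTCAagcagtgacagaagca
Ugt2b37 (chr5:87254805-87254864, minus strand): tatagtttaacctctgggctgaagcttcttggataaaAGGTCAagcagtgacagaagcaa
Ugt2b38 (chr5:87424204-87424263, minus strand): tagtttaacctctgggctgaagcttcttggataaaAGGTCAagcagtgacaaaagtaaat

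Counted back from the end of each stretch shown, AGGTCA began at -25, -22, -23 and -25. It was present in 14.0% of all promoters and in 19.0% of the entries of the conjugating enzymes. These 4 genes fell by very different amounts, with log2 changes of -0.69, -0.68, -1.09 and -2.36 in the same order.

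The last set shows 2 neighbouring genes that rose, Sult1d1 and Sult1e1, and 2 Gst genes that fell, Gstm3 with the steepest fall of any member and Gsta3 with the highest fed level.
Sult1d1 (chr5:87569028-87569256, minus strand): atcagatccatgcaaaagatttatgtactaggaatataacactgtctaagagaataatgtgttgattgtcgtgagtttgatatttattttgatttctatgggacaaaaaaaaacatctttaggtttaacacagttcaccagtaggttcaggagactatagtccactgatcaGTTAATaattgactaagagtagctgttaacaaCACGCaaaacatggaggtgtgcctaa
Sult1e1 (chr5:87591612-87591861, minus strand): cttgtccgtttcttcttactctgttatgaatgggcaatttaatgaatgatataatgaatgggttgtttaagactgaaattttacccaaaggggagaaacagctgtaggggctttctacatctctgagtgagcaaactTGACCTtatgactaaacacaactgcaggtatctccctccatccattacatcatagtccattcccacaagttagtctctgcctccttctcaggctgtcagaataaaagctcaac
Gstm3 (chr3:107969284-107969424, minus strand): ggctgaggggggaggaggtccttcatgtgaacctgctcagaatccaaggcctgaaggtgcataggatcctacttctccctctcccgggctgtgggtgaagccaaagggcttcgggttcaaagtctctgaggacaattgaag
Gsta3 (chr1:21240335-21240584, plus strand): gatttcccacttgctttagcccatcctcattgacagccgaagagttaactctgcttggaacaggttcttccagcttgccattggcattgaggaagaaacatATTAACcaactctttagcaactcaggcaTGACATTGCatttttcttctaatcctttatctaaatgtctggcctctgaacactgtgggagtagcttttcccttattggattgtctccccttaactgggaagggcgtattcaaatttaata

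The Gsta3 window held the HNF1 half-site on the other strand at -149 and the antioxidant response element core at -121. The latter core occurred in 10.2% of all promoters and 5.17% of the entries of the conjugating enzymes. Sult1e1 held the half-site AGGTCA on the other strand at -113. Sult1d1 held the HNF1 half-site at -58 and the dioxin response element core on the other strand at -26, both counted back from the end of the stretch shown. The Gstm3 window held none of the 7 motifs, and no entry of the conjugating enzymes held the E-box, which 6.02% of all promoters held. The D-box and the glucocorticoid receptor core were in 0.819% and 5.84% of all promoters and in 1.72% and 5.17% of the entries of the conjugating enzymes.

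The deposited values were taken as FPKM (fragments scaled by transcript length and library total). Depth per library had to be estimated, as the total that put the largest share of low values near whole numbers of reads. The median estimate was 25.5 M reads over the libraries of both tissues, with a range of 16.9 to 35.3 M. Liver identity was clear in every liver library, with 10 hepatocyte markers that summed to 62320 to 92100 FPKM. Skeletal muscle transcripts were present in part of the liver libraries: 11 muscle markers summed to 72.3 to 214.5 FPKM in fed liver at ZT8 to ZT20 and to 7.14, 132.8 and 422.7 FPKM in fasted liver at ZT4, against 0.505 to 1.97 FPKM in all other liver libraries. Liver transcripts were present in turn in fed muscle at ZT0 to ZT12, where 10 hepatocyte markers summed to 53.7 to 219.4 FPKM against 0.164 to 5.64 FPKM in the other muscle libraries.

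Fasted liver held less transcript of the Ugt and Gst families and more of the Sult family. Summed over all 55 members, the level was 6509 ± 411 FPKM in fed liver and 3898 ± 478 FPKM in fasted liver (SD, n = 18 each). The Gst genes summed to 3295 to 4972 FPKM in fed libraries, with a median of 3871, and to 1176 to 2368 FPKM in fasted libraries, with a median of 1703. These ranges did not overlap. The Ugt genes summed to 1535 to 2366 FPKM in fed libraries, with a median of 2049, and to 1016 to 1700 FPKM in fasted libraries, with a median of 1322. The Sult genes ran the other way, from 293.2 to 724.7 FPKM (median 597.4) in fed libraries to 592.7 to 1117 FPKM (median 894.5) in fasted libraries. Ugt and Sult ranges overlapped between the feeding states. The order of the members changed as well. In fed liver Gsta3, Gstp1 and Gstm1 were highest and held 16.6%, 16.0% and 11.3% of the summed FPKM, and Sult1a1 came 9th with 3.09%. In fasted liver Sult1a1 came first with 12.2%, followed by Gstp1 with 10.1% and Gstz1 with 8.79%. Since these are bulk tissues, fewer cells of a type and less RNA per cell cannot be told apart.

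**Figure D1:**
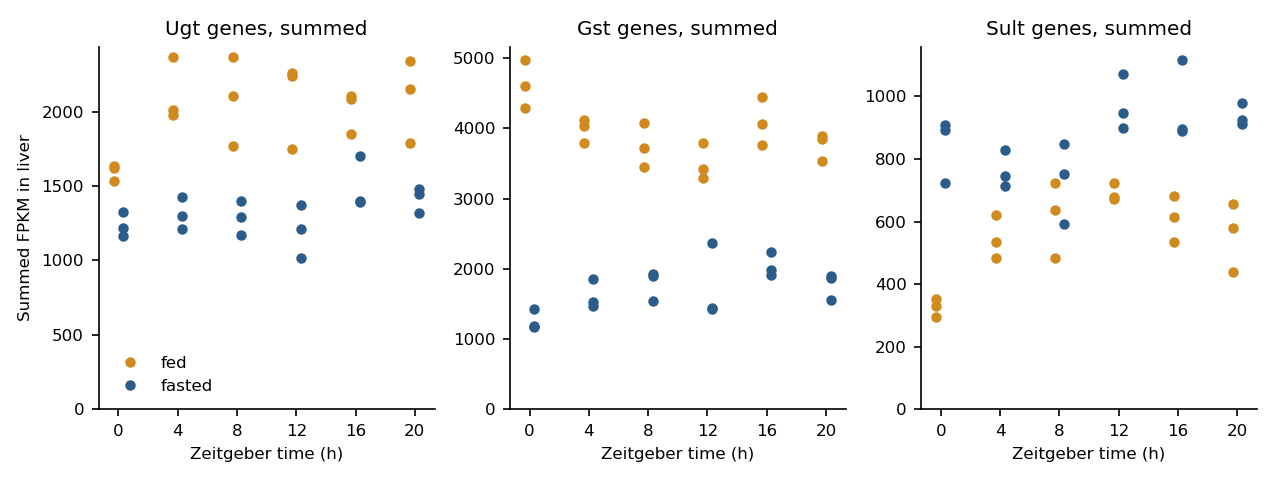
Summed FPKM of the Ugt, Gst and Sult genes (y axis, from 0) in each liver library against Zeitgeber time in hours (x axis), with fed libraries in orange and fasted libraries in blue. The 3 fed libraries of ZT0 stand at 4288 to 4972 FPKM for Gst genes and at 293.2 to 352.7 FPKM for Sult genes.

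Of the 55 members, 43 reached 1 FPKM in at least 3 liver libraries and were tested, and the other 12 never exceeded 0.714 FPKM in liver. Changes are given as fasted minus fed on the scale of log2(FPKM + 0.5), which understates the change of low genes, from limma with time as a factor and Benjamini-Hochberg adjustment over 10780 genes, and are called past the threshold at an adjusted p of 0.05. By this test 9 members rose, 29 fell and 5 did not pass. Over all genes tested 25.0% rose and 48.0% fell, and the median change was -0.71 for the tested members against -0.13 for all genes tested. A scaling by the median of ratios moved the median of all genes to -0.00076 and the counts over all genes from 2691 higher and 5174 lower to 3871 and 3994, and the members then counted 9 higher and 27 lower. In 17 tested members the level fell at least 2-fold and in 4 it rose at least 2-fold, against 7.09% and 3.47% of all genes. The 18 fasted values lay wholly below the 18 fed values in 11 members and wholly above in 4, against 7.45% and 2.39% of all genes. The 5 tested members Gsta1, Sult1c2, Sult1e1, Sult2a7 and Ugt1a10 reached 1 FPKM in 3 libraries of only 1 feeding state. Among the 38 that did so in both states, 8 rose, 26 fell and 4 did not pass.

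**Figure D2:**
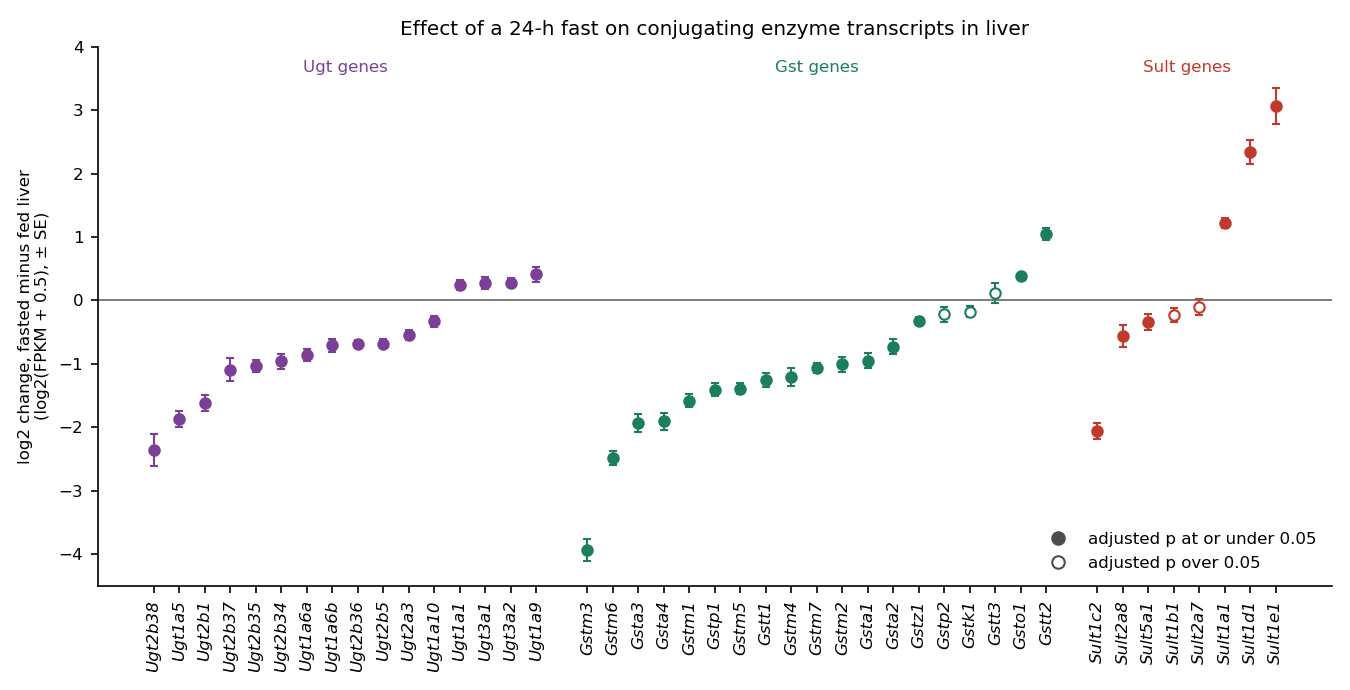
Change of each of the 43 tested members between fed and fasted liver, as log2 change ± SE (y axis), by gene (x axis) within the Ugt, Gst and Sult families; filled points passed the threshold and open points did not. Gstm3 at -3.94 and Sult1e1 at 3.07 mark the ends of the range.

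Glutathione S-transferases fell most. Of 19 Gst genes tested, 14 fell and 2 rose, and their median log2 change was -1.06. The mu class, whose 7 genes lie on chromosome 3 between 107895821 and 108044894, fell in full. Gstm1, the most abundant of them, ranged from 528 to 1082 FPKM in fed liver (median 684.4) and from 157.1 to 356.2 FPKM in fasted liver (median 249.8), with no overlap and a log2 change of -1.58 ± 0.098 (SE, adjusted p = 9.88e-16 by limma). Gstm3 had the steepest fall of any member. Its fed libraries ranged from 21.1 to 73.1 FPKM (median 39.7) and its fasted libraries from 0.661 to 4.10 FPKM (median 1.93), again without overlap. The log2 change of Gstm3 was -3.94 ± 0.17 (adjusted p = 1.66e-19 by limma), and it held in every alternative tried, from -4.02 to -3.88 when single libraries were left out. Gstm6 fell by 2.48 on the log2 scale, and the remaining mu genes Gstm2, Gstm4, Gstm5 and Gstm7 by 1.01 to 1.39. Gstm3 shares 9.83% of its 50-base words with Gstm1, so a part of the reads could be assigned to either gene.

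Alpha class enzymes, which conjugate lipid peroxidation products and, in mouse, the aflatoxin epoxide, fell as well. Gsta3, the highest member in fed liver, ranged from 823.9 to 1315 FPKM when fed (median 1062) and from 134.9 to 612.2 FPKM when fasted (median 249.9). These ranges did not overlap, and the log2 change was -1.93 ± 0.14 (adjusted p = 2.99e-14 by limma). Gsta4, which acts on 4-hydroxynonenal, went from 25.8 to 49.7 FPKM down to 4.20 to 18.1 FPKM, a log2 change of -1.91 ± 0.14 without overlap. Gsta1 and Gsta2 fell by 0.95 and 0.73 on the log2 scale. Gsta1 shares 44.6% of its 50-base words with Gsta2, so the split of reads between this pair is uncertain.

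Gstp1, the pi class enzyme, is high in male mouse liver. It ranged from 671.6 to 1453 FPKM in fed liver (median 1019) and from 228.8 to 561.1 FPKM in fasted liver (median 385.7), and the log2 change was -1.41 ± 0.10 (adjusted p = 1.08e-13 by limma). The ranges did not overlap. Its neighbour and near copy Gstp2 stood at 0.510 to 2.53 FPKM in fed and 0.290 to 1.65 FPKM in fasted liver, and its log2 change of -0.22 did not pass (adjusted p = 0.0937 by limma). Gstp2 was 24.8-fold higher in muscle than in liver, and muscle transcripts were present in the fasted ZT4 libraries and in the fed libraries of ZT8 to ZT20. Their part in the Gstp2 values was not tested. Without replicate 1 of fasted ZT4, Gstp2 passed (-0.28, adjusted p = 0.0233 by limma), as it did without replicate 3 of fed ZT8 (-0.25, adjusted p = 0.0495) and without ZT4 as a whole (-0.25, adjusted p = 0.0462), the last tried after seeing the data.

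The theta class split. Of its 4 genes 3 were tested, and the class lies together on chromosome 10 between 75774115 and 75837424. Gstt1 ranged from 134.8 to 256.1 FPKM (median 188.4) in fed and from 52.9 to 153.7 FPKM (median 80.2) in fasted liver and fell by 1.26 ± 0.11 on the log2 scale. Gstt2 went the other way, from 12.7 to 53.9 FPKM (median 26.0) to 30.4 to 102.2 FPKM (median 49.1), with a log2 change of 1.05 ± 0.093 (adjusted p = 6.45e-12 by limma). Both pairs of ranges overlapped. Gstt3 did not pass over all times, at 0.12 ± 0.16.

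Among the remaining classes, changes over all times were smaller. Gstz1, the maleylacetoacetate isomerase of tyrosine breakdown, had a fed mean of 424.1 ± 30.4 FPKM and a fasted mean of 342.6 ± 51.5 FPKM (SD, n = 18 each), a log2 change of -0.32. Gstk1, found in mitochondria and peroxisomes, did not pass over all times at -0.18. At ZT0 both fell, Gstz1 by 0.80 ± 0.12 and Gstk1 by 0.87 ± 0.16, and the effect differed between times in both (adjusted p = 0.0116 and 0.00969 by limma). Gsto1, which reduces dehydroascorbate, rose by 0.38 ± 0.045, from 48.4 to 64.9 FPKM in fed libraries to 67.0 to 86.1 FPKM in fasted libraries. It was 1 of the 4 members whose fasted values lay wholly above the fed ones.

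Ugt genes mostly fell, by less than the Gst genes. Of 16 tested, 12 fell and 4 rose, with a median log2 change of -0.70. The fall was largest in the Ugt2 cluster, whose enzymes conjugate steroids, bile acids and drugs such as morphine. Ugt2b1 ranged from 218.8 to 504.5 FPKM (median 343.0) in fed and from 47.8 to 207.7 FPKM (median 112.9) in fasted liver, without overlap, and its log2 change was -1.62 ± 0.13 (adjusted p = 4.11e-13 by limma). Ugt2b38 fell by 2.36 ± 0.25, with fed values of 7.06 to 38.7 FPKM and fasted values of 1.07 to 16.3 FPKM, and its ranges overlapped. Ugt2b5 and Ugt2b36, also abundant, had fed medians of 416.3 and 333.6 FPKM and fasted medians of 251.5 and 204.3 FPKM. Ugt2b5 shares 34.8% of its 50-base words with Ugt2b38, so reads could be assigned to either gene. Ugt2b37 fell by 1.09 ± 0.18 at a low level.

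The Ugt1a locus split by first exon. Ugt1a1, the enzyme that conjugates bilirubin, was the most abundant, with fed values of 111.5 to 215.3 FPKM (median 164.3) and fasted values of 104.1 to 249.3 FPKM (median 192.3). Its ranges overlapped and it rose by 0.25 ± 0.080 (adjusted p = 0.00586 by limma). Ugt1a9, which conjugates bulky phenols, rose by 0.41 ± 0.12, from a fed median of 36.2 FPKM to a fasted median of 51.7 FPKM. Ugt1a5 fell by 1.87 ± 0.13 from 21.0 to 61.3 FPKM (median 34.9) to 4.21 to 17.2 FPKM (median 9.78), with no overlap, and passed as lower at all 6 times. Ugt1a6a and Ugt1a6b, whose enzymes conjugate small planar phenols, fell by 0.86 and 0.71. Because of the shared exons, 58.2% to 100% of the 50-base words of each Ugt1a transcript occur in another, and the sources used here do not say how the authors divided these reads. The fed means of the 8 genes ran from 0.0977 FPKM for Ugt1a7c to 165.8 FPKM for Ugt1a1.

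The Ugt3a pair on chromosome 15 rose slightly. From the human enzymes, UGT3A1 and UGT3A2 are known to use other sugars than glucuronic acid. Ugt3a2 had a fed mean of 150.8 ± 21.6 FPKM and a fasted mean of 182.4 ± 24.1 FPKM (SD, n = 18 each), a log2 change of 0.28 ± 0.072. Ugt3a1 rose by 0.28 ± 0.098 from a fed mean of 21.5 FPKM. At ZT0 the log2 changes were -0.02 for Ugt3a2 and -0.17 for Ugt3a1, and neither passed.

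The Sult family held the largest rises. Of 8 genes tested, 3 rose, 3 fell and 2 did not pass, with a median log2 change of -0.16. Of these 8, 5 reached 1 FPKM in at least 3 libraries of both feeding states. Sult1e1, the estrogen sulfotransferase, was near the limit of detection in fed liver, from 0 to 0.328 FPKM (median 0.127), and ranged from 1.503 to 51.7 FPKM (median 3.72) in fasted liver. No fasted library overlapped a fed one, and the log2 change was 3.07 ± 0.28 (adjusted p = 1.91e-11 by limma). Sult1e1 reached the level for a test through fasted liver alone, so its call and lack of overlap are a description only. A single fasted ZT16 library held the 51.7 FPKM, and without single libraries the change ran from 2.87 to 3.17. Sult1d1, which in mouse acts on catecholamines, rose from 9.72 to 69.4 FPKM (median 40.1) to 108.6 to 301.5 FPKM (median 167.2), again without overlap, by 2.34 ± 0.19 on the log2 scale (adjusted p = 9.81e-13 by limma). Sult1a1, a phenol sulfotransferase, rose from 133.9 to 279.8 FPKM (median 197.6) to 326.6 to 821.1 FPKM (median 476.4), by 1.22 ± 0.075 (adjusted p = 8.39e-16 by limma). Its ranges did not overlap either.

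Sult1d1 and Sult1e1 are neighbours on chromosome 5, with Sult1b1, a thyroid hormone sulfotransferase, within the same 78.3 kb. Sult1b1 did not follow them, with fed values of 7.12 to 17.9 FPKM, fasted values of 4.17 to 16.0 FPKM and a log2 change of -0.23 that did not pass (adjusted p = 0.0635 by limma). It passed, with log2 changes of -0.287 to -0.254, when any 1 of 6 libraries was left out, namely fasted ZT12 replicate 2, fasted ZT16 replicates 3 and 4, fed ZT8 replicate 3, fed ZT16 replicate 2 or fed ZT20 replicate 4. Sult1c2 fell from 1.05 to 4.64 FPKM (median 2.55) to 0 to 0.495 FPKM (median 0.191), by 2.06 ± 0.12 on the log2 scale, without overlap. It reached the level for a test through fed liver alone, so this call is a description only. Sult5a1 changed by -0.34 ± 0.12. Sult2a8, a hydroxysteroid and bile acid sulfotransferase of mouse liver, changed by -0.56 ± 0.18 over all times (adjusted p = 0.00583 by limma), but its change had opposite signs at different times. Neither Sult5a1 nor Sult2a8 passed after scaling by the median of ratios (adjusted p = 0.151 and 0.0503 by limma) or after quantile normalisation (adjusted p = 0.115 and 0.0731).

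**Figure D3:**
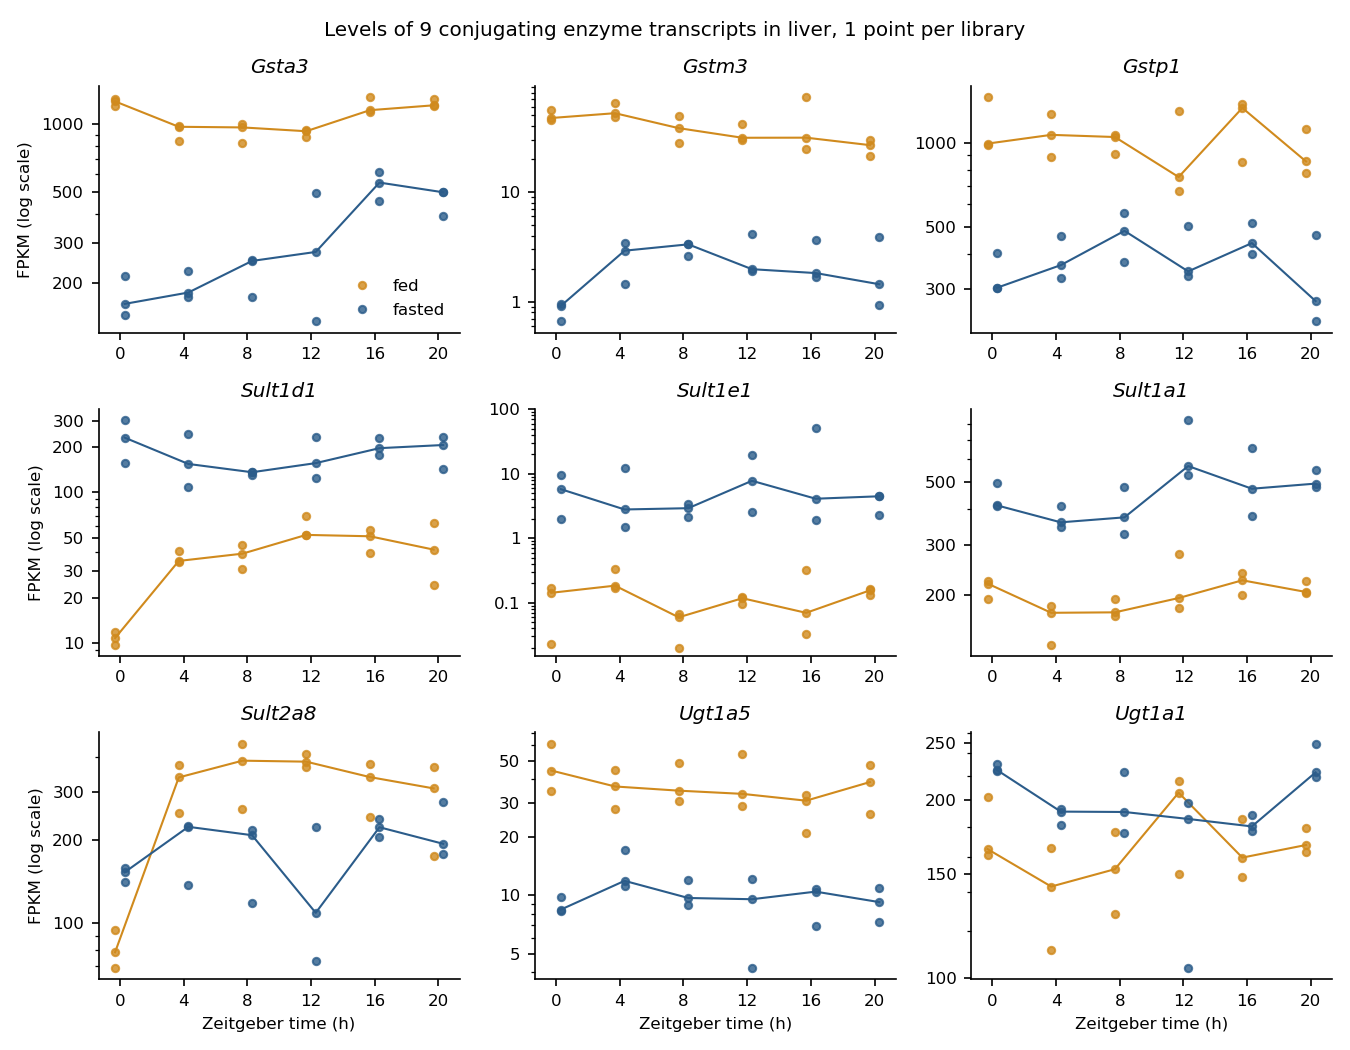
FPKM on a log scale (y axis) of 9 members in each liver library against Zeitgeber time in hours (x axis), with fed libraries in orange, fasted libraries in blue, and lines through the median of 3 libraries; a value of 0 for Sult1e1 is drawn at 0.02. Fed Sult1d1 lies at 9.72 to 11.8 FPKM at ZT0 and fed Sult2a8 at 69.0 to 94.4 FPKM, below their fed values at all other times.

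Taken time by time, most Gst genes fell furthest at ZT0 and the Ugt2 genes at other times. The number of members past the threshold was 6 higher and 25 lower of 43 at ZT0, where 27.7% and 39.6% of all genes were. At ZT4 the counts were 7 and 22, against 11.6% and 32.6%, and at ZT8 they were 7 and 26, against 9.8% and 28.8%. At ZT12 they were 5 and 24, against 12.6% and 28.1%. At ZT16 they were 7 and 20, against 11.9% and 35.2%, and at ZT20 they were 6 and 26, against 15.7% and 30.0%. Over the 6 times 28 members kept a negative and 5 a positive sign, against 35.5% and 14.3% of all genes. At every time 16 members passed as lower and 4 as higher, against 11.8% and 3.69% of all genes. Of the 19 Gst genes tested, 15 had their largest change at ZT0, against 0 of the 8 Ugt2 genes and 47.8% of all genes. The effect itself differed between times in 18 of the 43 members by the F test of feeding by time in limma, against 40.7% of all genes, and these 18 included all 7 mu genes. Levels also varied with exonic gene length. The slope of log2 deviations from gene means on log2 length was -0.145 to -0.0842 in fed ZT0 libraries. It was 0.0575 to 0.0872 in fasted ZT0 libraries and -0.0852 to 0.0222 in the other fed libraries. The part of this trend in the changes at ZT0 was not tested.

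Sult1d1 differed most between times. Its fed libraries at ZT0 held 9.72, 10.7 and 11.8 FPKM, and its fasted libraries 157.0, 231.7 and 301.5 FPKM, a log2 change of 4.31 ± 0.28. At ZT12 the fed libraries held 51.9, 52.2 and 69.4 FPKM and the change was 1.53 ± 0.28. The effect on Sult1d1 therefore ranged over 2.79 on the log2 scale (adjusted p = 4.12e-05 for feeding by time in limma). In Sult2a8 the sign turned. Fed values of 69.0, 78.6 and 94.4 FPKM at ZT0 lay below fasted values of 141.8, 153.2 and 158.7 FPKM, a rise of 0.91 ± 0.31, whereas at ZT12 fed values of 368.3, 386.0 and 413.1 FPKM lay above fasted values of 72.9, 109.2 and 223.0 FPKM, a fall of 1.68 ± 0.31. This range of 2.59 for Sult2a8 passed with an adjusted p of 0.000875 in limma. Sult1c2 fell at every time, by 1.38 to 2.78. Its fasted values of 0 to 0.495 FPKM lay under the pseudocount of 0.5 at every time. The spread of its change over times therefore follows mainly its fed levels, with a part from fasted values near the floor. Gstt3, which did not pass over all times, fell by 1.16 ± 0.31 at ZT0 and rose by 0.78 ± 0.31 at ZT16. Gsta3 fell by 2.87 at ZT0, where its fed libraries held 1202 to 1289 FPKM and its fasted ones 143.4 to 213.5 FPKM, and by 1.15 at ZT16.

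**Figure D4:**
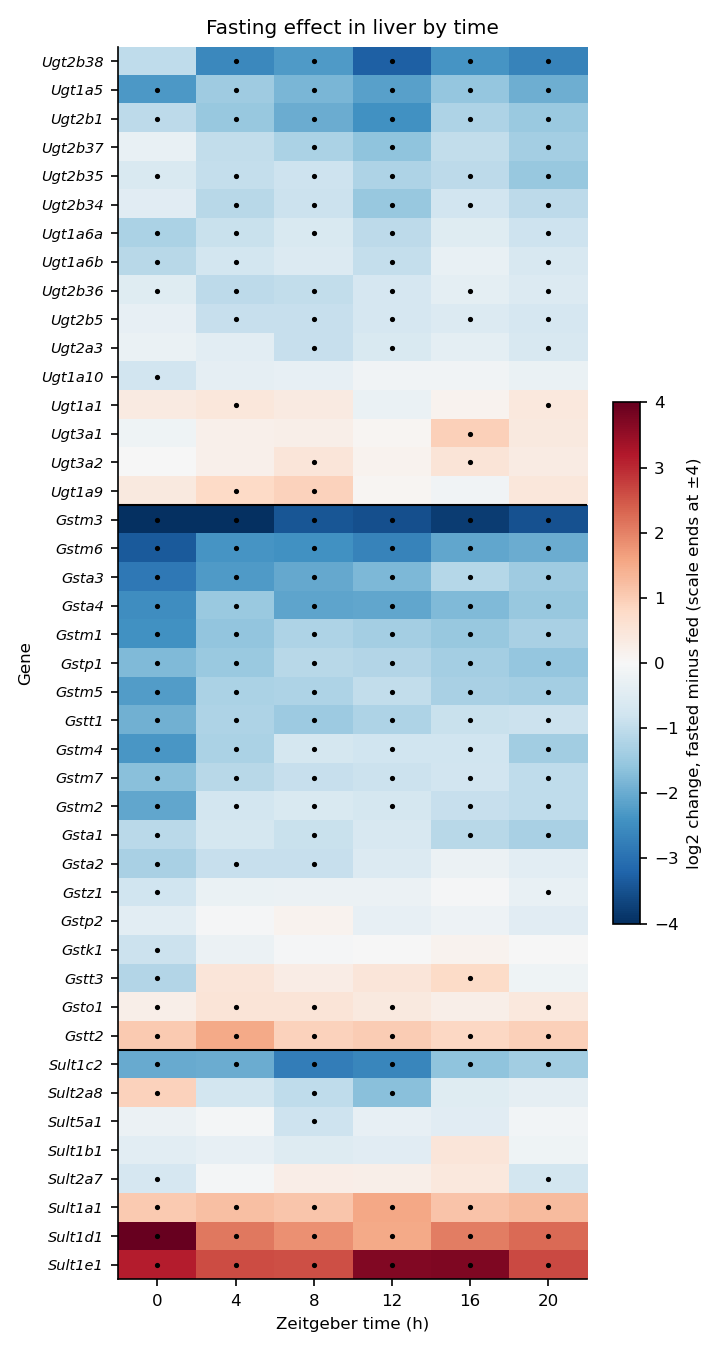
Log2 change between fed and fasted liver at each Zeitgeber time (x axis, hours) for the 43 tested members (y axis, ordered within each family by the change over all times), with blue for lower and red for higher in fasted liver and a dot where the adjusted p was at or under 0.05. Of the 19 Gst genes 15 have their largest change at ZT0, Sult1d1 reaches 4.31 at ZT0 and Sult2a8 turns from 0.91 at ZT0 to -1.68 at ZT12.

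Daily rhythms were fitted as 1 cosine of 24 h per feeding state. In fed liver 13 of 43 members were rhythmic, against 39.7% of all genes, and in fasted liver 15, against 31.0%. The rhythm differed between the states in 15, against 32.4%. The fed count rested in part on ZT0, since it was 8 without any single fed ZT0 library. Sult1c2 had a fed amplitude of 0.63 ± 0.089 on the log2 scale with a peak at ZT8.6 (adjusted p = 8.17e-06 by limma). Fasted Sult1c2 was too low for a rhythm to be seen, under the pseudocount in every library, and no comparison of its rhythm between the states is drawn. Sult1d1 peaked at ZT12.6 with an amplitude of 0.85 ± 0.16 when fed, and the fasted amplitude of 0.29 did not pass (adjusted p of the difference 0.00355 by limma). Sult2a8 had a fed amplitude of 0.83 ± 0.18 with a peak at ZT11.5. Gstt2 kept a rhythm in both states, with amplitudes of 0.62 ± 0.092 and 0.51 ± 0.092 and peaks at ZT12.2 and ZT10.8. Gstm4 was rhythmic in both as well, with amplitudes of 0.67 and 0.61, and its peak lay at ZT3.1 in fed and ZT7.7 in fasted liver (adjusted p of the difference 0.00317 by limma). Gstm7 had a fed amplitude of 0.36 ± 0.063 with a peak at ZT2.4. Gsta3 was rhythmic in fasted liver, where its amplitude of 0.79 ± 0.12 peaked at ZT16.6, and its fed amplitude of 0.27 did not pass (adjusted p of the difference 0.00786 by limma). Sult2a7 reached an amplitude of 0.54 ± 0.12 in fasted liver although no liver library held more than 2.00 FPKM of it.

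Intronic signal stems from unspliced RNA. Exonic values allowed a test of 38 members, of which 7 rose and 26 fell, against 26.3% and 46.4% of all genes. Intronic values allowed a test of 34, of which 10 rose and 18 fell, against 18.6% and 41.1%. These tables were used for the 47 members found in them, which leaves 8 members, most of them Ugt1a genes, not analysed here in this way. Intronic Sult1d1 rose from 0.271 to 5.86 FPKM (median 1.86) to 5.26 to 34.4 FPKM (median 13.4), by 2.64 ± 0.24 on the log2 scale, and intronic Sult1a1 rose by 1.52 ± 0.12. For Gstp1 the exonic and intronic falls were of like size, at -1.37 ± 0.10 and -1.36 ± 0.14. Gsta3 fell in both, by 1.89 in exons and 1.6 in introns. The intronic table is scaled to a total of its own, so these changes are relative to all intronic signal.

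The exonic change exceeded the intronic change, or fell short of it, in 14 of the 34 members. The difference was positive in 3 members and negative in 11, against 23.9% and 14.8% of all genes. Sult1e1 had the most positive value, at 1.57 ± 0.14. It reached the level for a test through fasted liver alone, and its introns lay at 0 to 0.181 FPKM in fed and 0.183 to 5.88 FPKM in fasted liver. The fed values are under the pseudocount, which lowers the intronic change (1.70) more than the exonic one (3.27), so the value for Sult1e1 is a description only. Ugt2b1 followed at 0.77 ± 0.16, where introns fell by 2.35 and exons by 1.58. Gstt1, at 0.45 ± 0.14, no longer passed after scaling by the median of ratios (0.38, adjusted p = 0.0611 by limma). The most negative were Gstp2 at -1.40 ± 0.26, Gstm5 at -1.24 ± 0.26 and Gstm3 at -1.14 ± 0.25. Intronic Gstp2 was low, from 0 to 3.48 FPKM (median 0.654) in fed and from 0 to 9.7 FPKM (median 1.67) in fasted liver. Gstp2 also shares 64.3% of its 50-base words with Gstp1, so its exonic reads could be assigned to either gene. Gsta2 went in opposite directions, with exons at -0.69 and introns at 0.38 (difference -1.07 ± 0.17, adjusted p = 1.83e-05 by limma), and Gsta4 differed by -1.01 ± 0.16. Intronic Gsta4 had medians of 0.62 FPKM in fed and 0.123 FPKM in fasted liver. These lie near or under the pseudocount, which lowers the intronic change, so the value for Gsta4 is a description only. In Gstm3, exons fell by 3.95 and introns by 2.81, from a median of 4.81 FPKM to one of 0.255 FPKM. With a pseudocount of 0.1 in place of 0.5, neither Gstm3 (-0.33, adjusted p = 0.477 by limma) nor Gstm5 (-1.155, adjusted p = 0.0853) passed. Intronic Gstm5 ranged from 0 to 1.31 FPKM in fed and from 0 to 1.53 FPKM in fasted liver.

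Muscle served as the contrast. There no Ugt gene exceeded a mean of 0.276 FPKM at ZT16 and ZT20, the times at which fed muscle held few liver transcripts. At these times 17 members had means over 1 FPKM, led by Gstm1 at 90.4, Gstm5 at 65.4 and Gstp1 at 61.9 FPKM. Gstm5 and Gstp2 were the 2 members over 1 FPKM that were higher in muscle than in liver, 8.79-fold and 24.8-fold by the ratio of the muscle mean at these times to the liver mean. Of the 18 members tested in muscle, 4 rose and 8 fell, against 30.3% and 51.8% of 11223 genes. Sult1a1 rose in muscle too. Its fed libraries ranged from 9.88 to 18.8 FPKM and its fasted libraries from 17.8 to 38.4 FPKM, with a small overlap, and its log2 change was 0.88 (adjusted p = 1.03e-10 by limma). Gsto1 rose by 0.43, from a mean of 24.7 ± 2.78 FPKM to 33.9 ± 6.33 FPKM (SD, n = 18 each), and Gstm1 changed by 0.21. At ZT16 and ZT20 alone, Sult1a1 (0.67) and Gsto1 (0.33) were the 2 members that still passed as higher.

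Gsta4 and Gstt1 fell in muscle as they did in liver, also at ZT16 and ZT20. Gsta4 went from 7.10 to 15.8 FPKM in fed muscle to 1.66 to 4.87 FPKM in fasted muscle, without overlap, a log2 change of -1.61, which was -1.55 at ZT16 and ZT20 alone. Gstt1 changed by -1.30, and by -1.15 at these 2 times. Ugt2b1 changed by -1.33 over all times. Its fed muscle libraries held 1.15 to 1.88 FPKM at ZT0 to ZT12, when liver transcripts were present, and 0 to 0.0181 FPKM at ZT16 and ZT20, when the change was -0.01 (adjusted p = 0.928 by limma). Gsta3 changed by -1.09 in muscle, with 0.958 to 3.74 FPKM in fed libraries at ZT0 to ZT12 and 0.925 to 5.32 FPKM at ZT16 and ZT20, when the change was -0.84.

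The fasting effect itself differed between the tissues in 14 of the 18 members, against 70.3% of 9419 genes tested. Liver minus muscle was positive in 4 and negative in 10 of them, against 31.8% and 38.5% of all genes. The 10 include Ugt2b1 (-0.28), whose muscle level came from the libraries that held liver transcripts. Gstm1 showed the largest difference, at -1.79 ± 0.091 for liver minus muscle (adjusted p = 3.24e-24 by limma), since it fell in liver and changed by 0.21 in muscle. Gstp1 differed by -1.45 ± 0.12, with muscle medians of 56.7 FPKM in fed and 57.9 FPKM in fasted libraries and a change of 0.05 that did not pass. After scaling by the median of ratios the muscle change of Gstp1 was 0.14 and passed (adjusted p = 0.0195 by limma). Gstm5 differed by -1.26 ± 0.093. In the other direction Gstt2 differed by 1.18 ± 0.14, since it rose in liver and stood at -0.13 in muscle. Gstt3 differed by 0.72 ± 0.14 and Sult1a1 by 0.34 ± 0.11.

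**Figure D5:**
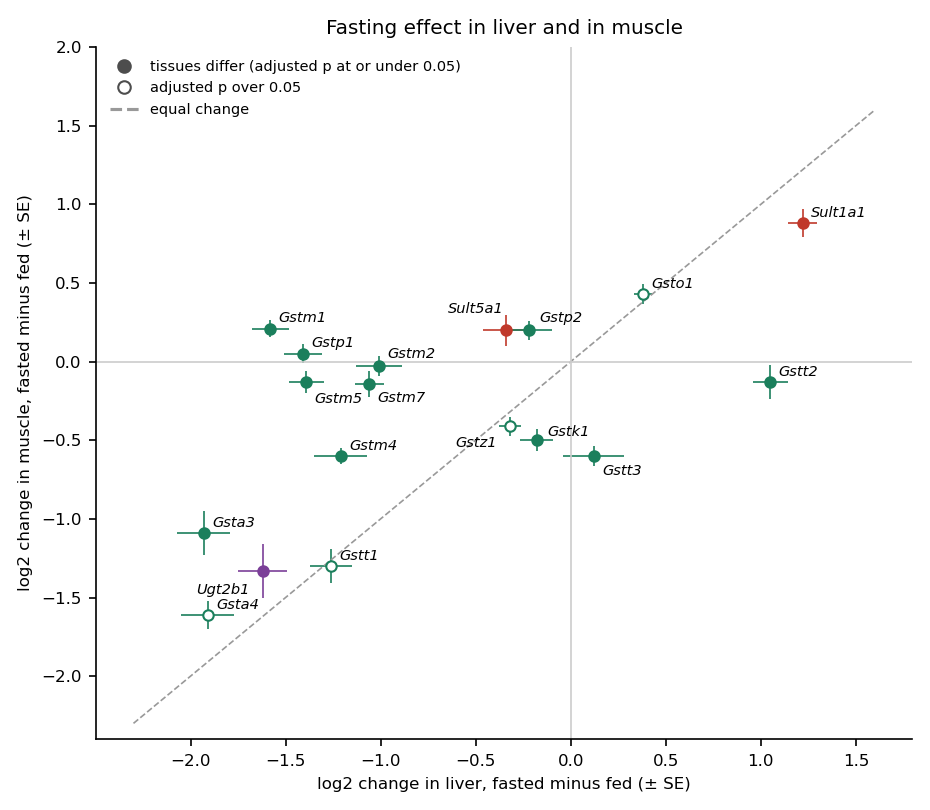
Log2 change between fed and fasted tissue in liver (x axis) and in muscle (y axis), each ± SE, for the 18 members tested in muscle; filled points are members whose change differed between the tissues and the dashed line marks equal change. Gstm1, Gstp1, Gstm5, Gstm2 and Gstm7 lie far left of the line and near 0 in muscle, and Gsto1, Gstz1, Gstt1 and Gsta4 are open.

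The counts that follow for other genes of these pathways stand beside 25.0% higher and 48.0% lower over all genes tested, with a median of -0.13. Counts after scaling by the median of ratios do not stand beside these shares. They stand beside the scaled counts over all genes given above. Of 12 genes listed around UDP-glucuronic acid, its making, use and removal, 11 fell and 1 rose, with a median log2 change of -0.73. After scaling by the median of ratios 8 fell and 1 rose. Rgn and Gulo, which act on the route from glucuronate to ascorbate, fell by 2.91 and 1.45, Slc35d1, which carries UDP-sugars into the endoplasmic reticulum, by 1.03, and Akr1a1, a glucuronate reductase, by 0.73. Ugdh, which makes UDP-glucuronic acid, went from a mean of 64.3 to 38.0 FPKM (-0.76 ± 0.088). The list also holds Nudt1 and Inpp5a, which are not enzymes of this supply and changed by -0.66 and -0.12. For PAPS and sulfate, 8 of 12 fell and 2 rose (median -0.35), or 6 and 3 after scaling by the median of ratios. Papss1, a PAPS synthase, fell from a mean of 5.95 to 1.32 FPKM, and Papss2, the more abundant synthase, from 60.4 to 42.8 FPKM. Bpnt1, which breaks down the spent donor, did not pass at -0.17.

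Glutathione supply changed in both directions, with 5 of 18 genes higher and 7 lower (median -0.06), or 7 and 6 after scaling by the median of ratios. Mat1a, Ahcy and Cth, which act between methionine and cysteine, rose by 2.65, 1.22 and 1.32, and Cbs in the same route did not pass at -0.08. Oplah rose by 1.14. Gclc, the catalytic subunit of the first step of glutathione synthesis, fell by 1.33 and its partner Gclm by 0.47. Among 9 other glutathione transferases and peroxidases 8 fell and 1 rose (median -0.43), with Mgst3 at -1.43 and Gpx3 at 1.16. Of 16 other conjugating enzymes 12 fell and 3 rose (median -0.52). The methyltransferase Inmt fell by 4.08, the glycine conjugating enzyme Glyat fell by 0.72, and Ephx2, an epoxide hydrolase, rose by 0.87. Of 13 transporters of conjugates and bile 8 fell and 3 rose (median -0.34), or 6 and 3 after scaling by the median of ratios. Abcb11, the bile salt exporter, fell by 1.62, the uptake carrier Slco1a4 rose by 2.49, and Abcc2, the canalicular exporter of conjugates, did not pass at 0.08.

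Of 19 receptors and regulators 5 rose and 8 fell (median -0.12), shares near those of all genes, or 7 and 5 after scaling by the median of ratios. Nr1i3 (CAR) rose by 1.14, Hnf4a by 0.61 and Por, the electron donor of cytochromes P450, by 2.53, while Nfe2l2 (NRF2) fell by 0.63. Of 13 targets of CAR and PXR outside the 3 families, 7 rose and 3 fell (median 0.46), with Gadd45b at 3.77 and Cyp2c55 at -2.05. Of 15 targets of NRF2, 9 fell and 2 rose (median -0.35), or 7 and 5 after scaling. Pgd, Me1, Tkt and Taldo1, enzymes of NADPH and pentose metabolism, fell by 1.78, 1.68, 1.58 and 1.00. Of 4 targets of the aryl hydrocarbon receptor 2 fell, with Cyp1a2 at -2.64. Of 16 genes with male-biased expression in liver 14 fell and 1 rose (median -1.03), with Hsd3b5 from 168.8 to 3.03 FPKM. Of 7 female-biased genes 5 rose and 2 fell (median 2.02), with Cyp17a1 from 4.92 to 91.7 FPKM. Pericentral hepatocyte genes fell in 9 of 15 and rose in 3 (median -0.44), and periportal ones rose in 9 of 14 and fell in 4 (median 0.68).

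Markers of other cell types moved with the fast as well. All 5 cholangiocyte markers tested fell, and the 6 on the list summed to 30.4 to 109.7 FPKM in fed and 9.14 to 24.5 FPKM in fasted liver. Of 8 macrophage markers 7 fell, and their sum was 40.6 to 171.4 FPKM in fed and 23.4 to 80.3 FPKM in fasted liver. Of 6 adipocyte markers only 2 reached the level for a test, of which 1 rose and 1 did not pass. The 6 summed to 1.08 to 3.57 FPKM in fed and 18.9 to 186.6 FPKM in fasted liver. This sum rests on few genes and does not show a rise of adipocyte markers as a set. Endothelial markers fell in 4 and rose in 1 of 8, stellate and fibroblast markers fell in 4 and rose in 3 of 8, and hepatocyte markers fell in 4 and rose in 3 of 10. The erythroid marker tested and both pancreas acinar markers tested fell, both intestinal markers tested rose, and no kidney tubule marker reached the level for a test. The part of these cells in the changes of the conjugating enzymes was not tested. Muscle markers fell in 10 of 11 over all times. At ZT0 they summed to 1.18 to 1.97 FPKM in fed and 0.661 to 1.04 FPKM in fasted liver. In the fit of all liver libraries 27.7% of all genes were higher and 39.6% lower at ZT0, and the member counts of that fit are those given time by time. The part of muscle transcripts in the changes of the conjugating enzymes was not tested.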

How the data were processed

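RNA libraries (TruSeq RNA v2, which does not mark strand) were made from total RNA extracted with TRIzol, per the labels' protocols. The submitters' processing notes name CASAVA 1.8.2 and mm10. How reads shared by several genes were counted is not given in the sources used here. Whole-gene, exonic and intronic values per library were deposited by the authors and were taken as FPKM from the values themselves. Depth was estimated as the trial total that put the largest share of low values within 0.1 reads of a whole number. At that depth the share was 49.1% (median over libraries). Chance gives 20% at a fixed total, but the depth was chosen for a high share, so these shares are not alike. Counts were thus not recovered, and count models were not used.

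Deposited values were converted here to log2(FPKM + 0.5) for genes at 1 FPKM or more in at least 3 libraries of a tissue. limma 3.58.1 in R 4.3.3, with a mean-variance trend and Benjamini-Hochberg adjustment over all genes tested, gave every adjusted p. Feeding by time used an F test with 5 degrees of freedom and the rhythm (period 24 h) one with 2. The tissue difference was fitted over 24 group means, and exonic minus intronic change was taken within a library. The code was tested on simulated data. Tables and figures used Python 3.11.15, pandas 2.3.3, NumPy 2.4.6 and matplotlib 3.10.9. Gene positions are from GENCODE M21 (mm10).

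The members and lists were chosen with earlier results of these data known. Members named were, per family, the 3 highest in fed liver, the 4 largest rises and falls, the largest change that did not pass, and the leading members by rhythm, time, tissue and exonic minus intronic difference; per list, the 4 of smallest adjusted p and the largest that did not pass. Of these, 1 gene is not reported here. Other genes named (among them Ugt1a6a, Gstz1, Gstk1, Ugdh, Papss2, Nudt1, Inpp5a, Cbs, Gclc and Gclm) were chosen after their values were seen. Alternatives were the pseudocount, the filter, 2 scalings, single libraries left out, subsets of times and a replicate block. A trend with gene length was also removed, for the liver effect over all times only.

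Outside the replicate block, replicate numbers were not used to pair the libraries. The check of these numbers is given with the dependence on processing.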

Additional observations from a re-analysis of the deposited data

Results flagged for a closer look

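Except for Sult1c2, as stated with its values, each value here differed between tissues, times or feeding states by a test of that difference in limma. The fasting effect differed between liver and muscle, as liver minus muscle on the log2 scale, by 1.18 for Gstt2, 0.72 for Gstt3 and 0.34 for Sult1a1, and by -1.79 for Gstm1, -1.45 for Gstp1 and -1.26 for Gstm5.

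The fasting effect in liver ranged over 2.79 on the log2 scale between the 6 times for Sult1d1, over 2.59 for Sult2a8 and over 1.40 for Sult1c2. Fed libraries of ZT0 were lowest for Sult1d1 and Sult2a8. The rhythm differed between fed and fasted liver with a difference in amplitude vector of 1.02 for Sult1d1, 0.71 for Gstm4, 0.68 for Gsta3 and 0.63 for Sult1c2. Fasted Sult1c2 lay under the pseudocount in every library, so both of its values reflect mainly the fed libraries and are not evidence of a difference between the states in timing.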

How the results depend on the processing

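The members called in liver numbered 9 higher and 29 to 32 lower when single libraries were left out, against 2564 to 2748 and 5091 to 5334 of all genes. The interaction with time held 15 to 21 members, rhythm in fasted liver 11 to 18, the rhythm difference 10 to 20, the tissue difference 14 to 15 and the exonic minus intronic difference 13 to 17. Members rhythmic in fed liver ranged from 8 to 15, with 8 without each of fed ZT0 replicates 1, 3 and 5. Muscle gave 2 members higher at ZT16 and ZT20 alone, and 24 lower with no filter on low values, which adds genes near 0. All-gene counts are not given for these muscle settings. In liver, ZT0 alone turned Ugt3a1 to -0.171, Ugt3a2 to -0.022, Gstt3 to -1.158 and Sult2a8 to 0.913, and ZT0 with ZT4 gave 0.091 for Sult2a8; the time by time values show the same turns. Quantile normalisation gave 9 members higher and 26 lower. Counts over all genes are not given for it, so these member counts cannot be weighed against all genes. In muscle, Gstm5 passed as lower without any 1 of 4 libraries (fasted ZT4 replicate 2, fasted ZT8 replicate 4, fed ZT4 replicate 3 or fed ZT8 replicate 3), with -0.166 to -0.149. Of the other alternatives for single genes, 439 kept direction and call, 16 lost and 10 gained the call.

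With the replicate block, liver gave 8 members higher and 30 lower, against 2219 and 4366 of 10780 genes tested. Muscle gave 4 and 10, and the tissue difference, tried after seeing the data, 11. Counts over all genes are not given for these, so the member counts cannot be weighed against all genes. Sult2a8 (-0.584, adjusted p = 0.0913 by limma) and Ugt3a1 (0.209, adjusted p = 0.18) no longer passed, and Gstp2 (-0.296, adjusted p = 0.0405), Sult1b1 (-0.381, adjusted p = 0.0453) and, in muscle, Gstm5 (-0.197, adjusted p = 0.021) did. Same-numbered libraries had correlations of deviations of -0.118 to 0.311 over 11 liver pairs, -0.153 to 0.456 over 12 muscle pairs and -0.275 to 0.217 over 19 pairs of liver with muscle. These values cannot tell whether liver and muscle of the same number came from the same mouse, since the tissues of a mouse need not deviate together. FPKM hold no counts, so intervals for low members such as Sult1e1 in fed liver are not given.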
